A study of Mus musculus with 2 samples.

Results

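Convergent TCRα proteins are CDR3 amino acid sequences that were built by at least 2 different nucleotide sequences within 1 library. The CDR3 is the loop of the T cell receptor where the V and J segments of the α chain join. Members were the productive TCRα clonotypes (in frame, no stop codon, first-listed J gene a TRAJ gene) whose CDR3 protein had 2 or more CDR3 nucleotide sequences in the same table. There were 386 such proteins among 4059 in the thymus library (9.51%, Wilson 95% interval 8.65 to 10.5) and 751 among 5617 in the spleen library (13.4%, 12.5 to 14.3). They held 872 of 4545 and 1785 of 6651 productive TCRα clonotypes, respectively, and numbered 1025 over both libraries. The number of encodings chose the members and is therefore given as a description.

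An α chain is made when one V segment is cut and joined to one J segment. Bases are trimmed from both ends, and the enzyme terminal deoxynucleotidyl transferase can add bases between them that no gene encodes. Because most amino acids have several codons, and because neighbouring V genes end in similar letters, separate joining events can give the same protein, which is known as convergent recombination. Such proteins are known to be made often and to be shared between repertoires.

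The cells were iT cells, T cells that arose in mice from engineered embryonic stem cells of the C57BL/6 background (iR9, CD45.2+) carrying an inducible Runx1-p2a-Hoxa9 cassette at Rosa26. Blood progenitors induced from them were transplanted into irradiated B-NDG recipients (CD45.1+), immunodeficient NOD mice with the Prkdc Scid and IL2rg mutations that lack T, B and NK cells of their own. One library was made from 15000 sorted CD4 and CD8 single-positive iT cells of the thymus and one from 15000 such cells of the spleen, where the gate also required CD62L+CD44- cells, and the TCRα and TCRβ transcripts were amplified with a commercial profiling kit. Whether both tissues came from the same animals was not stated. The thymus library held 2700370 reads and the spleen library 4585403, of which 778253 and 1558832 were productive TCRα reads. No minimum of reads was set, and the rarest clonotypes had 1 read. If reads were independent draws, a count of 0 would allow a share of up to 3 reads, which is 0.000385% and 0.000192% of these. Reads amplified from 15000 cells are not independent draws. The share of cells that a count of 0 allows is therefore larger, and it was not computed. With 1 library per tissue there was no replicate, and no molecular identifiers were stated, so intervals cover counting error only. Clonotypes of 1 library share their source and are not replicates, and a test between groups of clonotypes describes that library.

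The protein with most encodings, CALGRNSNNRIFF, shows the pattern base by base. Its 8 encodings in the spleen library are given 5′ to 3′, with the positions that varied among them in capitals.
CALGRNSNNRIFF spleen 1: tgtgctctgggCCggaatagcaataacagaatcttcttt
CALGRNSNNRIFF spleen 2: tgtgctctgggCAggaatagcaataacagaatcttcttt
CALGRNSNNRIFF spleen 3: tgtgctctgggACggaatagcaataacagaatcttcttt
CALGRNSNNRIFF spleen 4: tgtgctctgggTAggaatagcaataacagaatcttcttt
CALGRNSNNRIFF spleen 5: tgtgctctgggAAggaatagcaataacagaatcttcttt
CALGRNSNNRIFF spleen 6: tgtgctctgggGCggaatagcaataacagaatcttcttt
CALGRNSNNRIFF spleen 7: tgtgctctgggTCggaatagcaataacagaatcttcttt
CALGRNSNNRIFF spleen 8: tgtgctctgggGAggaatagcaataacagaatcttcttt

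The germline segments that met in these clonotypes are shown beside them, with the part that can enter the CDR3 in capitals. TRAJ31 is a J gene at chr14:54187895-54187951 (GRCm38, plus strand), printed whole. TRAV6D-6 is a V gene at chr14:52821922-52822359 (plus strand), of which the last 30 bases of the exonic sequence are printed. Both come from the GENCODE M21 transcripts.
TRAV6D-6 end: ctcggctgtgtactacTGTGCTCTGGGTGA
TRAJ31: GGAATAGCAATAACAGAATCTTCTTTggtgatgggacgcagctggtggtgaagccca

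The encodings of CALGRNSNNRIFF shared the first 11 bases with the end of TRAV6D-6 and all bases from position 14 on with TRAJ31. They differed only at the 2 positions between, the last base of the glycine codon and the first base of the arginine codon. All 8 of the 8 combinations of the bases seen at these positions were present. Their reads were 473, 243, 238, 235, 191, 189, 165 and 119, and the leading encoding held 25.5% of them. The first-listed V gene was TRAV6D-6 in every encoding but the sixth, where TRAV6-6, whose last 30 bases are identical, was listed in a tie. Only the leading encoding was also in the thymus library.

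In the thymus library the protein with most encodings was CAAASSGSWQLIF, joined to TRAJ22 and listed with 5 V genes from 4 V families. It is shown because its encodings differed in the V segment as well as at the junction.
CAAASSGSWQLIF thymus 1: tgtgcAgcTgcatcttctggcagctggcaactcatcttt
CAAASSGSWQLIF thymus 2: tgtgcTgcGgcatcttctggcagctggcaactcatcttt
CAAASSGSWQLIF thymus 3: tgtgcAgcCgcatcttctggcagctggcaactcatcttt
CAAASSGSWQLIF thymus 4: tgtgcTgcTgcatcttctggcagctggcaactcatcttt
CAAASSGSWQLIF thymus 5: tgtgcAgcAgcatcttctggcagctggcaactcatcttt
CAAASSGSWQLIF thymus 6: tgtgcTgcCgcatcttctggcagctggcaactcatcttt
TRAV14D-1 end: actcagctacctacttcTGTGCAGCAAGTG
TRAV4D-4 end: actcaggcacttacttcTGTGCTGCTGAGG
TRAJ22: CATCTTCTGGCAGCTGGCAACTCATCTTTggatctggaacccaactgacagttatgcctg

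After the cysteine codon, encodings 1, 3 and 5 carried the alanine codon of TRAV14D-1 (chr14:52855614-52856166, GRCm38, plus strand), and encodings 2, 4 and 6 that of TRAV4D-4 (chr14:52990866-52991389). The last base of the next alanine codon also varied. The bases that match TRAJ22 (chr14:54197248-54197307) were the same in each. The reads were 418, 332, 325, 84, 77 and 40, and the 6 encodings were 6 of the 8 possible combinations of the bases seen at their 2 variable positions. The spleen library held 4 encodings of the same protein, all of them also in the thymus library.

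A protein of 12 amino acids joined to TRAJ12, called the TRAJ12 protein here, was convergent in both libraries, with 4 encodings in the thymus and 6 in the spleen. It is shown because most of its encodings were not shared.
TRAJ12 protein thymus 1: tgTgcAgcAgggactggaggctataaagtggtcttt
TRAJ12 protein thymus 2: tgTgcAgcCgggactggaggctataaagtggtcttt
TRAJ12 protein thymus 3: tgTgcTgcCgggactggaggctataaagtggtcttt
TRAJ12 protein thymus 4: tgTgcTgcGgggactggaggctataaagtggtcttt
TRAJ12 protein spleen 1: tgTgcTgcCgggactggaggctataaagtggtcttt
TRAJ12 protein spleen 2: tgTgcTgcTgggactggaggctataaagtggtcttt
TRAJ12 protein spleen 3: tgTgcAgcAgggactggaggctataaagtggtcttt
TRAJ12 protein spleen 4: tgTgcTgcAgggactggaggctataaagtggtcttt
TRAJ12 protein spleen 5: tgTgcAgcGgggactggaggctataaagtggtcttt
TRAJ12 protein spleen 6: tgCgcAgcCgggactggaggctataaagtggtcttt
TRAJ12: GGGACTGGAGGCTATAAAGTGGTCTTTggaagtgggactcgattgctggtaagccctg

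The thymus encodings of the TRAJ12 protein had 531, 360, 116 and 27 reads, and the spleen encodings had 6447, 3623, 583, 278, 273 and 113 reads. Of the 8 distinct sequences, 2 were in both libraries. The encoding that led the spleen, with 6447 reads, was the third in the thymus, with 116. The J part, TRAJ12 (chr14:54206553-54206610, GRCm38, plus strand), was the same in every encoding.

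Most convergent proteins had few encodings. In the thymus library 308 proteins had 2 encodings, 63 had 3, 9 had 4, 5 had 5 and 1 had 6. In the spleen library 568 had 2, 117 had 3, 43 had 4, 15 had 5, 6 had 6, and 1 protein each had 7 and 8. At the threshold of the rule, 3673 thymus and 4866 spleen proteins had a single encoding and were the group of comparison. Convergent proteins held 21.4% of the productive TCRα reads in the thymus (166407 reads) and 39.4% in the spleen (614215 reads). Their shares of productive TCRα clonotypes were 19.2% and 26.8%. The largest singly encoded clonotype of the thymus alone had 98095 of the 778253 productive TCRα reads, which lowers the thymus share of reads.

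**Figure D1:**
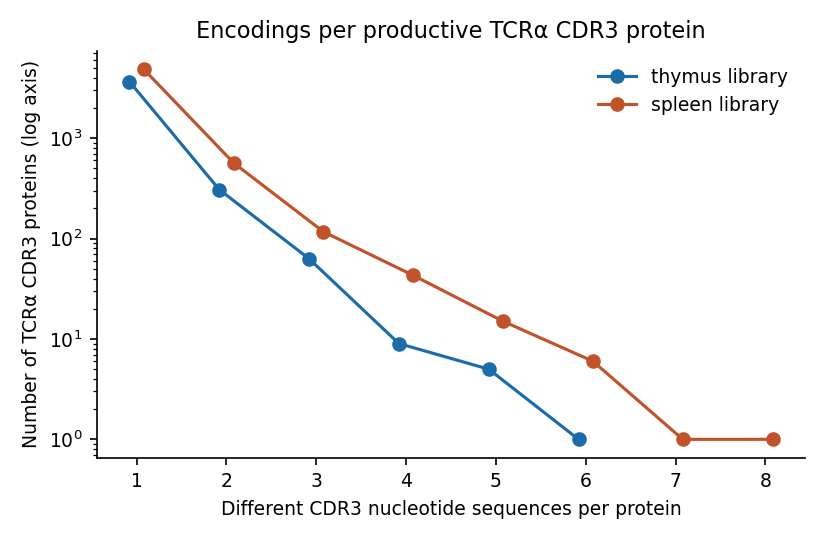
Number of productive TCRα CDR3 proteins (log axis) with each number of different CDR3 nucleotide sequences, in the thymus and the spleen library. The number was 3673 and 4866 proteins with 1 encoding and 308 and 568 with 2, and the spleen reached 8 encodings and the thymus 6.

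The share of convergent proteins was 3.86 percentage points higher in the spleen than in the thymus library (Newcombe 95% interval 2.58 to 5.12). The value compares the libraries, not the tissues, and as it is the measure that chose the members no test is given. The spleen library also held more productive TCRα clonotypes, and the part of that in the difference was not tested beyond equal reads, where the difference was 3.96. Among TCRβ proteins, which also carry a D segment, 48 of 1137 (4.22%) were convergent in the thymus and 66 of 1631 (4.05%) in the spleen. The TCRα share exceeded the TCRβ share by 5.29 percentage points in the thymus (3.70 to 6.68) and by 9.32 in the spleen (7.95 to 10.6), again without a test. Fewer TCRβ than TCRα proteins were seen, and the part of their number in these differences was not tested. When a protein had to keep the same V and J gene in its encodings, the thymus difference was 0.106 percentage points and the spleen difference 3.18.

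Encodings of one protein nearly always used 1 J gene and mostly several V genes. The rule favours a single J gene, since the encodings share all amino acids of the J part. In the thymus 303 of 386 proteins (78.5%, 74.1 to 82.3) were listed with several V genes and 205 (53.1%, 48.1 to 58.0) with several V families. In the spleen these were 527 of 751 (70.2%, 66.8 to 73.3) and 333 (44.3%, 40.8 to 47.9). A different V gene was listed for each encoding in 71.8% of thymus and 58.5% of spleen proteins. Copies of mouse V genes are near identical, and the top V hit was tied in 24.1% and 23.3% of productive TCRα clonotypes. Without the tied clonotypes, several V genes were listed for 70.4% and 63.3% of the proteins left.

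Encodings with different J genes were found for 3 proteins, named here after their values were seen. A protein of 13 amino acids in the thymus was listed with TRAJ27 (189 reads) and TRAJ52 (41 reads), and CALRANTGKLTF in the spleen with TRAJ52 (163 reads) and TRAJ27 (105 reads). Both end in the residues ANTGKLTF. The third, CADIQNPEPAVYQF in the spleen, had encodings of 2 reads and 1 read, listed with TRAJ23 and TRAJ9. Both encodings held at least 20 bases identical to a transcript of Trac, the TCRα constant gene, and no other convergent protein did.

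The encodings of one protein were close to each other. The rule limits how far apart they can be, since members were chosen for having the same amino acids. Of 616 pairs of encodings in the thymus, 56.7% differed by 1 nucleotide, 26.8% by 2, 10.4% by 3 and 6.17% by 4 or more. Of 1466 pairs in the spleen, these were 55.0%, 26.7%, 11% and 7.23%, and the largest differences were 11 and 10 nucleotides. The differing base was the third of its codon at 84.9% of variable positions in the thymus and 83.4% in the spleen. As every difference keeps the amino acid, the genetic code favours the third base, and these shares are descriptions. The first base followed at 11.2% and 13.8%, and the second at 3.92% and 2.87%. A single codon differed in 58.3% of thymus and 58.2% of spleen proteins, and 77.5% and 72.8% varied only within 2 neighbouring codons.

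A sequencing or amplification error of an abundant clonotype would lie 1 nucleotide from it with far fewer reads. Pairs 1 nucleotide apart with at least 20 times the reads numbered 11 in the thymus and 25 in the spleen, in 11 and 24 proteins. Possible errors at lower ratios are not in these counts. In the thymus, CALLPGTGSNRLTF varied only in codon 13 (171 and 14 reads) and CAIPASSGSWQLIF only in codon 14 (16 reads and 1 read). Both proteins are examples picked after their values were seen. Whether such pairs are errors was not tested. The leading encoding had a median of 2.29 times the reads of the second in the thymus (quartiles 1.46 and 5.24) and 2.28 times in the spleen (1.44 and 4.35). This ratio was under 2 in 43.5% and 43.3% of proteins and at least 10 in 12.2% and 10.9%.

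Variation lay at the start of the CDR3. Among the 150 thymus and 255 spleen convergent proteins of 13 amino acids, codon 3 differed in 46.7% and 43.1% and codon 4 in 47.3% and 46.3%. Codon 1, the conserved cysteine, differed in 18.0% and 19.6%, codon 2 in 28.0% and 29.4%, codon 5 in 23.3% and 28.6%, and codon 6 in 4% and 4.71%. From codon 7 on, which the J segment mostly encodes, no codon differed in more than 2% of proteins. Alanine codons made up 33.3% of all variable codons in the thymus and 27.5% in the spleen, followed by serine in the thymus with 13.1% and in the spleen with 12%. These shares also count how common each residue was. Of all alanines in convergent proteins, 29.2% in the thymus and 26.1% in the spleen had a variable codon. For serine it was 18.9% and 17.8%, whereas proline (36.1% and 30.3%) and glutamate (31.8% and 27.5%) exceeded alanine in both libraries.

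**Figure D2:**
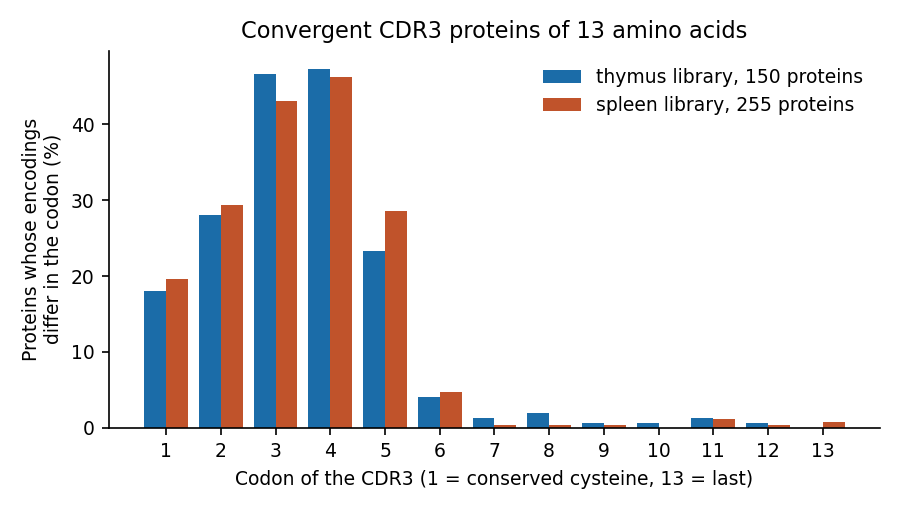
Share of convergent CDR3 proteins of 13 amino acids whose encodings differed in each codon, by library (150 thymus and 255 spleen proteins). Bars were highest at codons 3 and 4 and at most 2% from codon 7 on.

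Where the variation lay differed between proteins of several V families and proteins of 1. The grouping itself sets part of this, since V families can differ in the bases that open the CDR3. In proteins whose encodings used several V families, 61.7% of variable positions in the thymus and 65.8% in the spleen were in codons 1 to 3, and 16.3% and 10.9% were inserted bases of the leading encoding. In proteins of 1 V family, 16.6% and 21.7% were in codons 1 to 3 and 35.8% and 26.2% were inserted bases. A single variable position sufficed in 81.8% and 79.2% of the proteins of 1 family and in 29.8% and 26.7% of those of several families. These shares are descriptions, since positions of one protein are not independent. Inserted bases are those between the deposited V and J alignments, which can reach beyond the annotated segments. Their shares were not repeated with the annotated segments. Of the proteins printed above, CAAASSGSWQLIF used several V families and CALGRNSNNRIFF used 1. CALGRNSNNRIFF varied at 2 positions, so it differs from most proteins of 1 family in having more than 1 variable position. Its leading encoding counted 0 inserted nucleotides, because its deposited J alignment began at position 12. That is ahead of the printed TRAJ31 bases, and its 2 variable bases match neither printed segment.

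Clonotypes of convergent proteins had fewer inserted nucleotides than those of singly encoded proteins. Bases between the ends of the deposited V and J alignments were counted as inserted, and a clonotype was called insertion-free when there were none. In the thymus 372 of 872 clonotypes of convergent proteins (42.7%, 39.4 to 46.0) were insertion-free, against 1072 of 3673 (29.2%, 27.7 to 30.7). The difference was 13.5 percentage points (9.90 to 17.1, Fisher's exact test, two-sided, adjusted p = 8.93e-14 over 8 tests). In the spleen the shares were 949 of 1785 (53.2%, 50.8 to 55.5) and 1773 of 4866 (36.4%, 35.1 to 37.8), a difference of 16.7 points (14 to 19.4, adjusted p = 7.56e-34, same exact test). These tests count every clonotype, and clonotypes of one protein are not independent. With 1 clonotype drawn per protein, the differences were 12.5 points in the thymus (adjusted p = 9.17e-07, Fisher's exact test) and 15.1 in the spleen (adjusted p = 1.47e-14).

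The mean number of inserted nucleotides was 1.22 (SD 1.43, n = 872 clonotypes) against 2.44 (SD 3.69, n = 3673) in the thymus and 1.14 (SD 1.91, n = 1785) against 2.17 (SD 3.82, n = 4866) in the spleen. At least 6 inserted nucleotides were found in 0.917% of thymus clonotypes of convergent proteins against 8.90% of the others, and in the spleen in 2.13% against 7.11%. The V and J alignments overlapped, so that a base could come from either, in 28.7% against 19.8% in the thymus and 36.8% against 24.2% in the spleen. The insertion-free share was higher with more encodings. It was 29.2%, 38.8%, 51.3% and 53.7% in the thymus at 1, 2, 3 and 4 or more encodings, and 36.4%, 49.7%, 57.5% and 61.1% in the spleen.

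The level of the insertion-free share depended on how germline bases were recognised. The alignments of the tables can reach beyond the annotated segments. When bases were instead matched exactly to the GENCODE segments of the first-listed genes, which was possible for 95.7% and 94.6% of clonotypes, insertion-free clonotypes fell to 13.7% of all in the thymus and 22.2% in the spleen. The groups still differed, with 23.3% against 11.4% in the thymus (adjusted p = 1.92e-17, Fisher's exact test) and 32.5% against 18.3% in the spleen (adjusted p = 9.96e-32). Counted per protein, with every clonotype required to be insertion-free, the thymus shares were 23.3% against 29.2%, the opposite order (adjusted p = 0.0174, Fisher's exact test), and the spleen shares 36.8% against 36.4% (adjusted p = 0.871). That count asks more of proteins with several clonotypes.

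Convergent proteins were shorter. At most 13 amino acids were found in 246 of 386 thymus proteins (63.7%, 58.8 to 68.4) against 1749 of 3673 singly encoded ones (47.6%, 46.0 to 49.2), a difference of 16.1 points (10.9 to 21, Fisher's exact test, adjusted p = 1.89e-09). In the spleen it was 451 of 751 (60.1%, 56.5 to 63.5) against 2269 of 4866 (46.6%, 45.2 to 48.0), 13.4 points apart (9.61 to 17.1, adjusted p = 9.90e-12, same exact test). Mean lengths were 13.2 (SD 1.09) against 13.6 (SD 1.71) amino acids in the thymus and 13.3 (SD 1.22) against 13.6 (SD 1.72) in the spleen. No convergent protein was shorter than 10 or longer than 17 amino acids, whereas singly encoded ones ranged from 4 to 40 in the thymus and from 4 to 47 in the spleen.

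The length difference did not pass the test when convergence was defined more strictly. When encodings had to share the V and J gene, 53.2% against 51.0% of thymus proteins were of at most 13 amino acids (adjusted p = 0.701, Fisher's exact test) and 52.8% against 50.5% of spleen proteins (adjusted p = 0.486). The number of codon combinations that the genetic code allows for a protein was also computed. Its median log10 was 6.55 for convergent and 6.80 for singly encoded proteins in both libraries. Per residue, the median was not lower, with 0.506 against 0.504 in the thymus and 0.506 against 0.500 in the spleen.

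**Figure D3:**
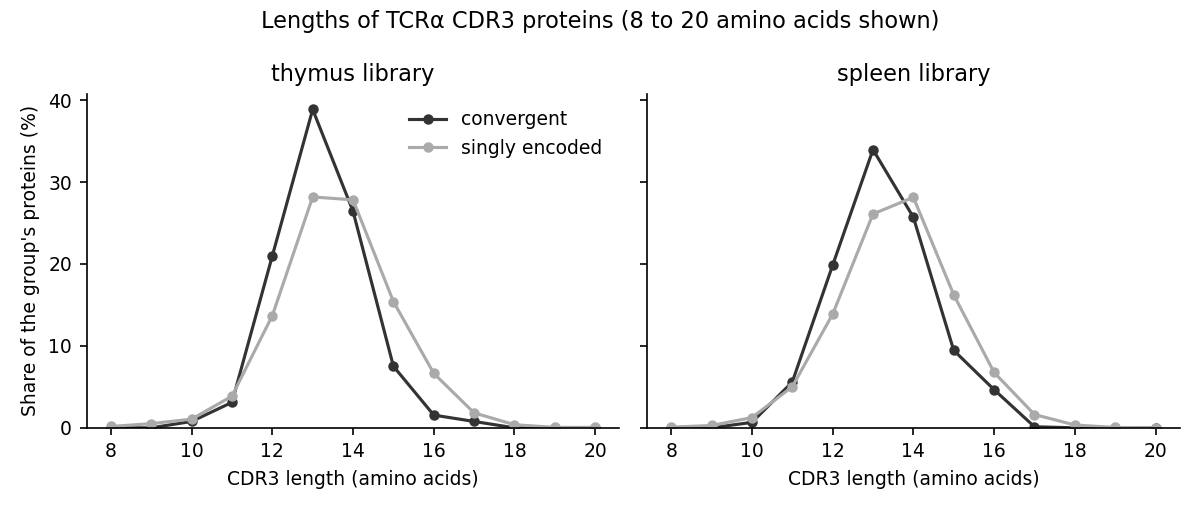
Share of convergent and of singly encoded TCRα CDR3 proteins at each length in amino acids, in the thymus and the spleen library. Convergent proteins peaked at 13 amino acids with 38.9% and 34.0%, against 28.2% and 26.1% of singly encoded ones, and fewer had 15 or more.

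Clonotypes of convergent proteins exceeded the median read count of their library more often than the others did. Counted per clonotype, so that a sum over encodings played no part, 57.8% of thymus clonotypes of convergent proteins exceeded the library median of 97 reads, against 48.0% of the others (difference 9.77 points, 6.09 to 13.4, Fisher's exact test, adjusted p = 2.35e-07). In the spleen 58.2% against 46.7% exceeded the median of 129 reads (11.4 points, 8.74 to 14.1, adjusted p = 2.90e-16, same exact test). Median reads per clonotype were 118.5 against 93 in the thymus and 164 against 119 in the spleen. By number of encodings (1, 2, 3 and 4 or more) the thymus medians were 93, 115, 122 and 176 reads. The spleen medians were 119, 148, 187 and 219.5 reads. At least 1000 reads were found in 1.83% against 0.463% of thymus clonotypes and in 5.77% against 1.27% of spleen clonotypes. With 1 clonotype drawn per protein, the differences above the median were 6.64 points in the thymus (adjusted p = 0.0138, Fisher's exact test) and 8.41 in the spleen (adjusted p = 2.12e-05). With the V and J gene kept, the thymus difference above the median was 6.92 points (adjusted p = 0.0575, Fisher's exact test).

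The most abundant convergent protein of the spleen, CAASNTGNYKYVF, had 28135 reads, of which 27883 came from one encoding.
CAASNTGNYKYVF spleen 1: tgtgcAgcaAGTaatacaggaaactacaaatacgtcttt
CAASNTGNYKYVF spleen 2: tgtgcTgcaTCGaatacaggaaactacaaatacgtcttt

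The second encoding of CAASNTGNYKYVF had 252 reads and differed at 4 positions, including all of its serine codon. The leading one was listed with TRAV14N-1 and the other with TRAV5-4, both joined to TRAJ40, and the protein was not in the thymus library. The next most abundant spleen proteins were CAMRDYSNNRLTL (TRAJ7, 2 encodings, 11367 reads), the TRAJ12 protein (6 encodings, 11317 reads), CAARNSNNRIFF (TRAJ31, 6 encodings, 9408 reads) and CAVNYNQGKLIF (TRAJ23, 3 encodings, 8985 reads). Their leading encodings held 90.9%, 57.0%, 82.6% and 51.3% of the reads.

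In the thymus the most abundant was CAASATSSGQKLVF, with 3778 reads in 3 encodings of 3096, 494 and 188 reads.
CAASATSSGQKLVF thymus 1: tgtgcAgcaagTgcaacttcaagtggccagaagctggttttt
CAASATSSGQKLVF thymus 2: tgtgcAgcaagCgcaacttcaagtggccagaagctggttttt
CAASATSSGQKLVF thymus 3: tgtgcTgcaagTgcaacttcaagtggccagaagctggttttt
TRAV14D-1 end: actcagctacctacttcTGTGCAGCAAGTG
TRAV10N end: attcagccatctacttcTGTGCAGCAAGCA
TRAV5D-4 end: actcagccatgtacttcTGTGCTGCAAGTG
TRAJ16: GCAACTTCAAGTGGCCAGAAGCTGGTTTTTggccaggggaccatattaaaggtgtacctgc

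All 3 encodings of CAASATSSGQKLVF had no inserted nucleotide, and each follows the germline end of its first-listed V gene up to TRAJ16 (chr14:54203134-54203194, GRCm38, plus strand). These V genes were TRAV14D-1, TRAV10N (chr14:53122114-53122610) and TRAV5D-4 (chr14:53001713-53002232). The others among the 5 most abundant were a protein of 15 amino acids joining TRAV16N to TRAJ37 (2 encodings, 3007 reads), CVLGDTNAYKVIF (TRAJ30, 3 encodings, 2314 reads), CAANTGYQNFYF (TRAJ49, 5 encodings, 2194 reads) and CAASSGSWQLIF (TRAJ22, 3 encodings, 1738 reads). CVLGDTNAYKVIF used only TRAV6-2 and varied at 1 position, in codon 4.

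The other proteins with most encodings were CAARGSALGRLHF (TRAJ18, 5 encodings), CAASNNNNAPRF (TRAJ43, 5) and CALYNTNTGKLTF (TRAJ27, 5) in the thymus. In the spleen they were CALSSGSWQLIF (TRAJ22, 7 encodings), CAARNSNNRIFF (TRAJ31, 6) and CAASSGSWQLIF (TRAJ22, 6). Ties were broken by reads, so the lists of 5 hold 4 of the 5 thymus proteins with 5 encodings and 3 of the 6 spleen proteins with 6. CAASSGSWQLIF was listed with 6 V genes from 5 families in the spleen, and all of its 6 encodings there were insertion-free. Some encodings were rare: the lowest had 1 read in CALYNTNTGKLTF and 2 reads in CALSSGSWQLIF.

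Convergent proteins were found in the other tissue more often than singly encoded ones. Of the thymus convergent proteins, 214 of 386 (55.4%, 50.5 to 60.3) were among the spleen proteins, against 764 of 3673 singly encoded ones (20.8%, 19.5 to 22.1). The difference was 34.6 points (29.5 to 39.7, Fisher's exact test, two-sided, adjusted p = 6.89e-44 over 8 tests). Of the spleen convergent proteins, 304 of 751 (40.5%, 37.0 to 44.0) were among the thymus proteins, against 674 of 4866 (13.9%, 12.9 to 14.9), a difference of 26.6 points (23.0 to 30.3, adjusted p = 9.10e-59, same exact test). The libraries share the set of proteins present in both, so the 2 tests are not independent.

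The share in the other tissue was higher with more encodings. In the thymus it was 20.8% at 1 encoding, 48.7% at 2, 79.4% at 3 and 93.3% (14 of 15 proteins) at 4 or more. In the spleen it was 13.9%, 35.4%, 50.4% and 66.7% (44 of 66 proteins).

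**Figure D4:**
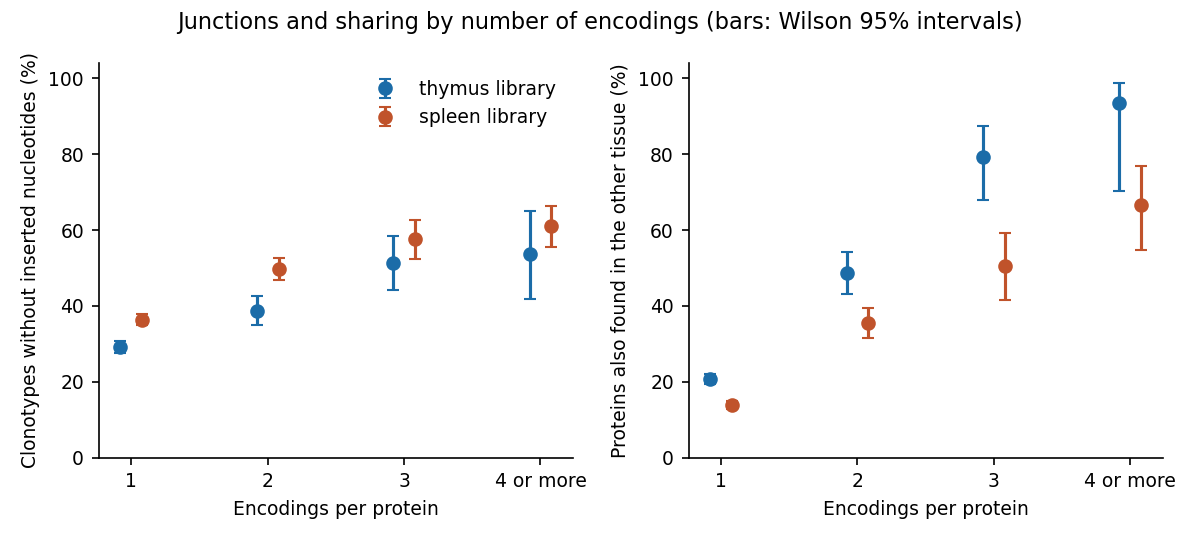
Share of clonotypes without inserted nucleotides (left) and share of proteins also found in the other tissue (right), by encodings per protein, with Wilson 95% intervals, for the thymus and the spleen library. Both shares were higher with more encodings, the second from 20.8% to 93.3% in the thymus and from 13.9% to 66.7% in the spleen.

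Presence was also compared among proteins with and without an insertion-free clonotype. This split does not make the junctions alike, because a convergent protein has several clonotypes of which any 1 can be insertion-free, and the number of inserted nucleotides differs further. With an insertion-free clonotype, 70.4% of convergent against 32.8% of singly encoded thymus proteins were in the spleen (adjusted p = 9.70e-25, Fisher's exact test, over 4 tests), and without one 35.0% against 15.8% (adjusted p = 8.89e-09). For spleen proteins in the thymus the shares were 45.7% against 19.2% (adjusted p = 1.76e-30) and 30% against 10.8% (adjusted p = 7.13e-15), by the same exact test. With the V and J gene kept, the thymus shares without an insertion-free clonotype were 9.52% against 6.26% (adjusted p = 0.335, Fisher's exact test).

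A convergent protein offers more nucleotide sequences that could be shared. When only the leading clonotype of each protein was looked up, by its nucleotide sequence, it was in the other library for 25.4% of convergent against 11.2% of singly encoded thymus proteins (adjusted p = 5.59e-13, Fisher's exact test). In the spleen this was 16.9% against 7.15% (adjusted p = 9.88e-16, same exact test). The leading clonotype of a convergent protein was chosen for having most reads, whereas a singly encoded protein gave its only clonotype. The clonotypes looked up were therefore not matched in reads, and the part of reads in these differences was not tested. When only sequences absent from the library at hand counted, 35.5% against 12.9% of thymus proteins (adjusted p = 1.21e-25, same exact test) and 21.3% against 7.87% of spleen proteins (adjusted p = 4.27e-25) were in the other library.

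In all, 112 proteins were convergent in both libraries, 29.0% of the thymus members and 14.9% of the spleen members. A further 102 thymus members were singly encoded in the spleen and 172 were not found there. Of the spleen members, 192 were singly encoded in the thymus and 447 were not found there. Among the members present in the other library, 64 of 214 (29.9%) in the thymus and 90 of 304 (29.6%) in the spleen shared no nucleotide sequence with it. Of the 112 convergent in both, 19 (17%) shared none. The 5 with most encodings summed over both libraries were the TRAJ12 protein, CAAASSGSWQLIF, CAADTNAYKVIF (TRAJ30, 4 in thymus and 6 in spleen, 6 distinct), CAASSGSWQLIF (3 and 6, 7 distinct) and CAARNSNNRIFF (2 and 6, 7 distinct). The last was 1 of 4 proteins with a sum of 8.

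A few J genes were used more in convergent proteins in both libraries. These shares are descriptions with no test, because one protein gives several clonotypes with the same J gene. TRAJ23 was listed for 9.75% of thymus clonotypes of convergent proteins against 5.28% of the others, and in the spleen for 7.68% against 4.79%. For TRAJ22 the shares were 8.26% against 4.44% and 5.71% against 3.6%, and for TRAJ31 they were 7.34% against 4.63% and 6.39% against 4.64%. TRAJ18 stood at 2.29% against 1.55% in the thymus and at 3.98% against 2.1% in the spleen. TRAJ27 was higher in the thymus only, with 7.45% against 4.47%, and had 3.98% against 4.21% in the spleen. Over all J genes, 19.2% of thymus and 26.8% of spleen clonotypes belonged to convergent proteins. Of the TRAJ18 clonotypes of the spleen, 41.0% (34.0 to 48.5) did so. TRAJ39, TRAJ32 and TRAJ48 were listed less often in convergent proteins in both libraries. TRAJ39 had 1.61% against 3.35% in the thymus and 1.23% against 3% in the spleen. Over 43 J genes found in both libraries, 12 had a higher share among convergent clonotypes in both, 20 a lower share in both and 11 were on opposite sides.

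**Figure D5:**
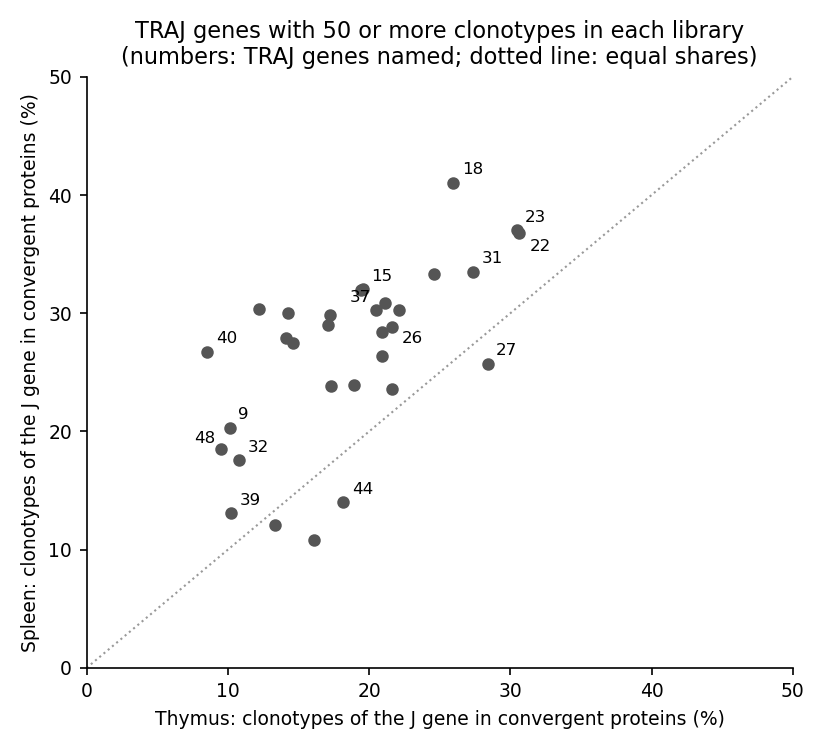
Share of each TRAJ gene's productive clonotypes that belonged to convergent proteins, thymus (x axis, %) against spleen (y axis, %), for the 31 TRAJ genes with at least 50 clonotypes in each library. TRAJ23, TRAJ22 and TRAJ31 were high in both, TRAJ39 was low in both, and 27 of 31 genes lay above the line of equal shares. Over all J genes the shares were 19.2% (thymus) and 26.8% (spleen).

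Among V families, named after their values were seen, TRAV14, TRAV7, TRAV3, TRAV5 and TRAV4 had a higher share among convergent clonotypes in both libraries. TRAV14 had 17.1% against 11.7% in the thymus and 12.8% against 9.31% in the spleen, and TRAV3 had 6.88% against 4.90% and 10.6% against 5.96%. TRAV4 had 9.63% against 5.94% in the thymus but was nearly equal in the spleen, with 4.71% against 4.42%. TRAV13 was lower in both, with 3.90% against 7.60% and 4.99% against 9.02%, as was TRAV6, with 11.1% against 16.6% and 12.6% against 14.4%. TRAV10 and TRAV12 lay on opposite sides. TRAV10 had 5.05% against 2.21% in the thymus and 1.96% against 2.32% in the spleen.

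Of single V genes, TRAV14D-1 was among those most above the singly encoded share in both libraries. It had 2.87% against 1.47% in the thymus and 4.15% against 1.5% in the spleen, where 50.3% (42.4 to 58.3) of its clonotypes were in convergent proteins, against 26.8% over all V genes. In the thymus TRAV10 had 2.52% against 0.980% and TRAV4D-3 had 1.95% against 0.490%. In the spleen TRAV3D-3 had 5.60% against 3.06% and TRAV6D-6, the V gene of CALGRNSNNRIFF, had 2.07% against 0.719%. TRAV16D-DV11 was among the genes most below in both, with 2.87% against 4.27% and 3.08% against 4.71%. Single V genes carry the uncertainty of the tied hits given above.

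The first 3 residues reflect the V family. CAA opened 44.8% of thymus convergent proteins against 27.4% of singly encoded ones, and 28.5% against 23.0% in the spleen. CAV opened 14.8% against 14.6% in the thymus and 22.9% against 16% in the spleen. CAM was rarer among convergent proteins, with 8.81% against 12.1% and 10.3% against 14.1%, whereas CAL had 20.5% against 27.7% in the thymus and 27.4% against 26.8% in the spleen.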

How the data were processed

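Libraries were made by the authors with the SMARTer Mouse TCR a/b Profiling Kit, sequenced on a MiSeq and analysed with MiXCR, which assembled reads into clonotypes and named V and J genes from its own library. The deposited tables, 1 per tissue, give the count of reads per clonotype, not normalized, and the same count as a fraction of all reads. The counts were used here. Molecular identifiers and error filters are not given in the sources used here.

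Chains were set by the first-listed J gene. Inserted nucleotides were taken from the deposited alignment ends. Convergent and singly encoded groups were compared within each library by Fisher's exact test, two-sided, with Benjamini-Hochberg adjustment within families of 8 and 4 tests (the share of convergent proteins, also repeated below under alternatives, was not given a p), Wilson intervals for shares and Newcombe intervals for differences, in Python 3.11.15 with pandas 2.3.3 and scipy 1.17.1. The functions were tested on simulated data. Members, lists and tests were chosen with earlier results of these data known. Proteins named were the 5 with most encodings and the 5 with most reads per library, and the 5 with most encodings over both, with ties broken by reads. Outside these lists, the proteins with several J genes, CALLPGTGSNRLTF and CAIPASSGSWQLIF were named after their values were seen. V and J genes named were the 5 leading and up to 5 most above or below the singly encoded share, of which those that matter are given. Segments and coordinates came from GENCODE M21 (GRCm38), where 44 of 45 genes named or shown were found. The tables carry no coordinates.

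Alternatives were minimums of 2 or 10 reads, merging clonotypes 1 nucleotide apart with at least 20 times the reads, stricter identity (same V and J), chain by V gene, equal reads, and other limits or matching rules. Chosen after seeing the data were insertions in unshared clonotypes, presence among abundant proteins, insertions by match to annotated segments, and 1 clonotype drawn per protein with a fixed seed.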

Additional observations from a re-analysis of the deposited data

How the results depend on the processing

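Of 131 repeated tests, 123 kept their direction and side of the 0.05 threshold, 7 kept the direction only and 1 reversed. These counts include 3 comparisons of the convergent share, between chains and between libraries, each under 7 alternatives. That share chose the members, so its repeats are descriptions and lend no weight to the counts. The thymus comparison between chains was 1 of those that kept the direction only. With the same V and J gene required, convergent proteins numbered 111 in the thymus and 324 in the spleen (2.51% and 5.15% of proteins, 5.85% and 17.1% of reads). The length difference was then 2.12 and 2.30 points, the thymus difference in reads 6.92, in presence without an insertion-free clonotype 3.27 and between chains 0.106. With the V family and J gene required, the thymus number was 226, the shares 5.26% and 9.04% of proteins and 11.5% and 26.6% of reads, and the thymus length difference 6.24. Stricter identity by construction splits members. The insertion difference per protein was -5.87 points in the thymus and 0.315 in the spleen, where every clonotype had to be insertion-free. Shares of reads were 21.1% and 39.2% at 10 or more reads, 21% and 38.9% with errors merged, and 21.6% and 39.6% with the chain set by V gene. Several V genes were listed for 70.4% and 63.3% without tied clonotypes. Differences in presence ranged from 14.2 to 38.4 points in the thymus and from 7.40 to 27.7 in the spleen over 10 alternatives each. No paired analysis was possible because each tissue had 1 library. Rare clonotypes rest on as little as 1 read, and depth limits how many encodings of a protein could be seen.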

Other observations

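Encodings also differed between the libraries among proteins outside the members. Of 572 proteins that were singly encoded in both, 281 (49.1%) had different nucleotide sequences in thymus and spleen and 291 (50.9%) had the same. Over both libraries pooled, 1306 of 8698 proteins (15%) had at least 2 encodings, and no protein had more than 8.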
